A study of Arabidopsis thaliana with 20 samples.

Results

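JAZ1 to JAZ10 are 10 Arabidopsis thaliana genes for jasmonate ZIM-domain repressors. They were picked by gene identifier from a table of 32833 genes. All 10 were in the table, and all 10 passed the filter on low counts that left 23349 genes for testing.

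Jasmonate ZIM-domain (JAZ) proteins hold back the response to jasmonate, a hormone of wounding and of defence against insects and necrotrophic fungi. Without the hormone they sit on MYC transcription factors and, through the adaptor NINJA or on their own, bring in the co-repressor TOPLESS (TPL). The active hormone, jasmonoyl-isoleucine, glues a JAZ protein to the F-box receptor COI1, the JAZ protein is degraded, and the freed MYC factors switch on their targets. Most JAZ genes are themselves among those targets, so that JAZ transcripts normally climb within a short time of a jasmonate burst and the new protein shuts the response down again. Jasmonate and salicylic acid signalling commonly oppose each other in leaves.

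RNA from the aerial parts of plate-grown seedlings was sequenced in 20 libraries of 7 groups, which the labels place in 3 batches. The autoimmune lines carry a pair of DANGEROUS MIX (DM) genes, alleles of immune loci that trigger autoimmunity when combined, brought into the reference accession Col-0 by transformation. Batch 1 holds DM1-DM2d (n = 3) and Col-0 (n = 2), both 12 days after sowing (DAS), and batch 2 holds DM6-DM7 (n = 3) and Col-0 (n = 3), both 14 DAS. Batch 3 holds Col-0 adr1s (n = 3), DM1-DM2d adr1s (n = 3) and, likewise, DM6-DM7 adr1s (n = 3), in which the helper receptor genes ADR1, ADR1-L1 and ADR1-L2 were knocked out by CRISPR-Cas9. The control of batch 3 therefore carries the knockout as well, and no library joins the batches. The labels of batch 3 give no age. The harvest protocol names 12 DAS for DM1-DM2d and 14 DAS for DM6-DM7, so the DM1-DM2d adr1s and DM6-DM7 adr1s plants may differ in age. Both lines share the Col-0 adr1s control, whose age is not labelled either. If the lines differ in age, at least 1 of them differs in age from that control, and age and genotype cannot be told apart there. The labels call the libraries biological replicates and do not say how many plants or independent transformants stand behind each, and the promoters of the transgenes are not given in the sources used here.

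Each library held 48360933 to 127276992 counts. Levels below are CPM, counts per 1000000 counts of a library after scaling by trimmed mean of M values, on which scale the detection floor of 3 counts lay between 0.024 and 0.058 CPM. In each library 64.9% to 78% of the counts from 1 to 19 were even, and whether both mates of a read pair were counted is not given in the sources used here, so low counts may stand for fewer fragments than their number. Shoot markers were detected in all groups, with the Rubisco small subunit gene RBCS1A at 897 to 30500 CPM. The others were low in DM1-DM2d: LHCB2.1 was at 5.12 to 18.2, LHCB1.1 at 12 to 52.6, PSAH2 at 21.2 to 28.4 and CAB3 at 29.3 to 55 CPM. In the Col-0 control of that line these genes were at 533 to 3010 CPM. The summed level of all 5 shoot markers moved with the lines. It was 977 to 1210 CPM in DM1-DM2d against 20700 to 22500 in its control, and 13200 to 16700 in DM6-DM7 against 51400 to 69000. In the adr1s background it was 18500 to 22800 with DM1-DM2d and 19300 to 23600 with DM6-DM7, against 36300 to 39800. The part of this in the JAZ results was not tested. Of 8 root markers, 7 were at most 0.989 CPM in any library, and the exception, PYK10, was at 282 to 1140 CPM. ADR1-L2 was at 11.9 to 26.5 CPM in the 9 adr1s libraries and 31.5 to 203 CPM in the other 11. ADR1 and ADR1-L1 overlapped between these libraries, and transcript counts of an edited gene do not show whether it still works.

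The members lie on chromosomes 1, 2, 3 and 5. JAZ7 (AT2G34600) spans chr2:14573030-14573952 on the plus strand and JAZ9 (AT1G70700) spans chr1:26654529-26657350 on the plus strand. JAZ1 (AT1G19180) spans chr1:6621777-6623668 on the plus strand, and JAZ8 (AT1G30135) spans chr1:10596352-10597341 on the plus strand. Aligned coding sequences were 80.1% identical between JAZ7 and JAZ8 (over 83.2% of the longer sequence) and 77.3% identical between JAZ1 and JAZ2 (over 93.8%), and no pair shared an unbroken stretch longer than 25 bases. Only JAZ10 (AT5G13220) overlapped another annotated gene, an opposite-strand long noncoding RNA (AT5G02045), over 71 of its 2215 exonic bases.

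The 300 bases upstream of the annotated start are shown for 3 members that differed most in their changes described below: JAZ7 and JAZ9, with the largest rise and the largest fall in DM1-DM2d, and JAZ8, with the largest fall in DM6-DM7 adr1s. Capitals mark the G-box CACGTG, the core site of MYC factors, and the W-box TTGACC of WRKY factors, here read on the minus strand. The windows are chr2:14572730-14573029, chr1:10596052-10596351 and chr1:26654229-26654528, all on the plus strand of the RefSeq TAIR10.1 assembly.
JAZ7: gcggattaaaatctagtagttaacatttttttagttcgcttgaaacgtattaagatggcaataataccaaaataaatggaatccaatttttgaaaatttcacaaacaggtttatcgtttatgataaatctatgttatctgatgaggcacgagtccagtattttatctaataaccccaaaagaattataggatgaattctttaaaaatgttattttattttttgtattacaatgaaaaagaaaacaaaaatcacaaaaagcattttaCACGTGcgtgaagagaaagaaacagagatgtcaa
JAZ8: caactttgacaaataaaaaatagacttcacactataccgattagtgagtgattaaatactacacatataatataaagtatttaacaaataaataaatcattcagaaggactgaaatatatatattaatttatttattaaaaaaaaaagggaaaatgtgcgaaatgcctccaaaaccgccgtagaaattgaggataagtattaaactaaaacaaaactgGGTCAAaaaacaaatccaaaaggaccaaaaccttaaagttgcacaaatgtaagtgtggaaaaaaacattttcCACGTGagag
JAZ9: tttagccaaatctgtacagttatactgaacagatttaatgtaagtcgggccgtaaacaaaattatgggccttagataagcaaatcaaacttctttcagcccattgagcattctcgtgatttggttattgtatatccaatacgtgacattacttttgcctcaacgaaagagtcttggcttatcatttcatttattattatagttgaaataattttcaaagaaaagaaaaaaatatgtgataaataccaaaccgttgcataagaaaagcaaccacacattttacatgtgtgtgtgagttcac
The G-box lay 34 bases before the start of JAZ7 and 10 bases before that of JAZ8, and JAZ9 held none of the 7 motifs searched on both strands. A G-box was present in 4 of the 10 windows (JAZ2, JAZ3, JAZ7 and JAZ8) and in 7.09% of 27443 windows over all genes. The related AACGTG was present in JAZ3, JAZ5 and JAZ6 (8.71% of all windows), TTGACC in JAZ8 (14.01%), TTGACT in JAZ1 and JAZ4 (21.95%) and TGACGT in JAZ3 (8.72%). The evening element AAATATCT of clock-controlled genes was present in JAZ10 (5.64%), and the ERF site GCCGCC in none of the 10 (2.26%). No motif matches overlapped. A match is a description of the letters in a window of 300 bases, and no binding was measured.

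Per kilobase of exon, 4 members made up most of the JAZ transcript pool in the Col-0 groups. In Col-0 at 12 DAS JAZ9 held 27.7% ± 6.4 of the summed length-scaled level (SD, n = 2), JAZ2 held 22.2% ± 1.4, JAZ1 held 21.6% ± 3.9 and JAZ6 held 19.2% ± 1. JAZ4 and JAZ8 were the scarcest, at 0.193% ± 0.08 and 0.298% ± 0.18. In DM1-DM2d the pool had another composition: JAZ1 held 45.6% ± 1.8 and JAZ7, which held 0.682% ± 0.016 in the control, held 19.9% ± 1.2 (n = 3). JAZ9 held 1.74% ± 0.28 there. In DM6-DM7, JAZ7 held 4.56% ± 1.4 and JAZ9 22.8% ± 0.75, against 1.01% ± 0.87 and 36.2% ± 5.5 in Col-0 at 14 DAS (n = 3 each). The summed level was 219 ± 23 CPM per kilobase in DM1-DM2d against 132 ± 29 in its control, and 109 ± 10 in DM6-DM7 against 142 ± 40 in its control, where the libraries of line and control overlapped. In batch 3 it was 157 ± 13 in Col-0 adr1s, 57.7 ± 4.4 in DM6-DM7 adr1s and 94 ± 6.9 in DM1-DM2d adr1s, with no overlap between these groups.

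**Figure D1:**
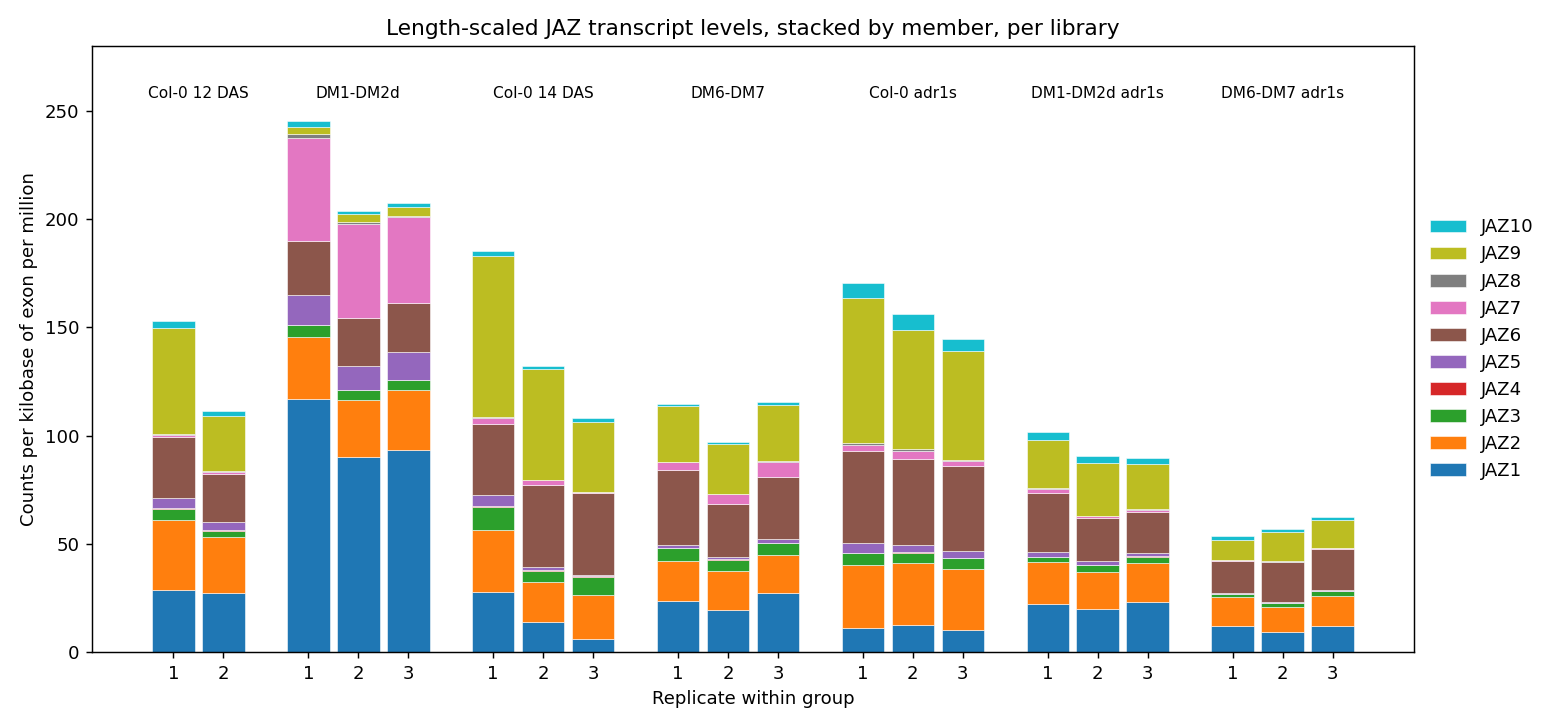
Length-scaled level of each JAZ gene (CPM per kilobase of exon, stacked, y axis) in each library, by replicate within group (x axis). JAZ1 (bottom, blue) and JAZ7 (pink) fill most of the bars of DM1-DM2d, JAZ9 (olive) has a mean share of 1.74% in DM1-DM2d and of 20.5% to 36.4% in the other groups, and the bars of DM6-DM7 adr1s are the lowest, between 53.7 and 62.3.

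In DM1-DM2d, JAZ7, JAZ1 and JAZ5 were higher and JAZ9 and JAZ4 lower than in Col-0 at 12 DAS, while the other 5 members did not pass the test. The called members were thus 3 higher and 2 lower of 10, in a comparison in which 73% of all genes passed the threshold (36.6% higher and 36.4% lower). The number of called members was therefore not above the background. The median log2 change over the members was 0.09, against 0 over all genes. Bulk RNA cannot tell fewer cells of a type from less RNA per cell, here and in the comparisons that follow.

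JAZ7, a short member that recruits TPL directly, was at 39.1, 35.6 and 32.6 CPM in the 3 DM1-DM2d libraries and at 0.845 and 0.637 CPM in the controls. Every DM1-DM2d library was far above both controls, and none of the other 6 groups reached more than 5.67 CPM in any library. The log2 change was 5.59 ± 0.93 (SE), a 48.1-fold rise (adjusted p = 5.32e-05, edgeR quasi-likelihood test). JAZ1, a repressor of MYC2, was at 210, 162 and 169 CPM against 52.2 and 49.1 CPM. Its groups did not overlap, and the log2 change was 1.83 ± 0.4 (adjusted p = 0.000682, edgeR). JAZ5, a close relative of JAZ6, was at 31, 25.1 and 28.4 CPM against 10.5 and 7.96 CPM, again with no overlap. Its log2 change of 1.61 ± 0.6 (adjusted p = 0.0255, edgeR) lost the call with upper-quartile scaling (1.29) and without DM1-DM2d replicate 1 or either control library, with a log2 change of 1.33 to 1.77 when single libraries were left out.

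JAZ9, which also binds DELLA growth repressors, moved the other way. It was at 6.48, 7.09 and 7.43 CPM in DM1-DM2d and at 91.2 and 47.9 CPM in Col-0. The controls differed from each other by more than the 3 treated libraries did, yet both were above all of them, and the log2 change was -3.31 ± 0.29, a 9.94-fold lower level (adjusted p = 2.39e-08, edgeR). These were the lowest JAZ9 levels of any group. JAZ4, a relative of JAZ3 and one of the scarce members, was at 0.109, 0.117 and 0.137 CPM, which is 10, 10 and 12 counts, against 0.392 and 0.525 CPM, which is 26 and 33 counts. Its groups did not overlap, and its log2 change was -1.91 ± 0.53 (adjusted p = 0.0039, edgeR).

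JAZ2, JAZ3 and JAZ6 overlapped with their controls. JAZ2 was at 36.7 to 39.6 CPM against 35.6 to 44.5 CPM, JAZ3 at 11.6 to 14.5 CPM against 8.55 to 13.6 CPM, and JAZ6 at 47.7 to 53.5 CPM against 47.3 to 60.2 CPM. The 95% intervals of their log2 differences were -0.38 to 0.22 for JAZ2, -0.27 to 0.78 for JAZ3 and -0.46 to 0.24 for JAZ6. JAZ10, a member with splice forms that resist degradation, was at 3.65 to 6.18 CPM against 4.95 to 6.7 CPM (interval -0.83 to 0.27). JAZ8, the closest relative of JAZ7, was at 1.28, 0.468 and 0.548 CPM against 0.211 and 0.382 CPM. Its groups did not overlap, but with 14 to 117 counts per library the difference did not pass the test (log2 change 1.36, interval -0.48 to 3.21). Upper-quartile scaling, which lowered the median change of all genes by 0.302 here, added JAZ2, JAZ6 and JAZ10 to the lower members and turned the uncalled value of JAZ3 to -0.06.

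**Figure D2:**
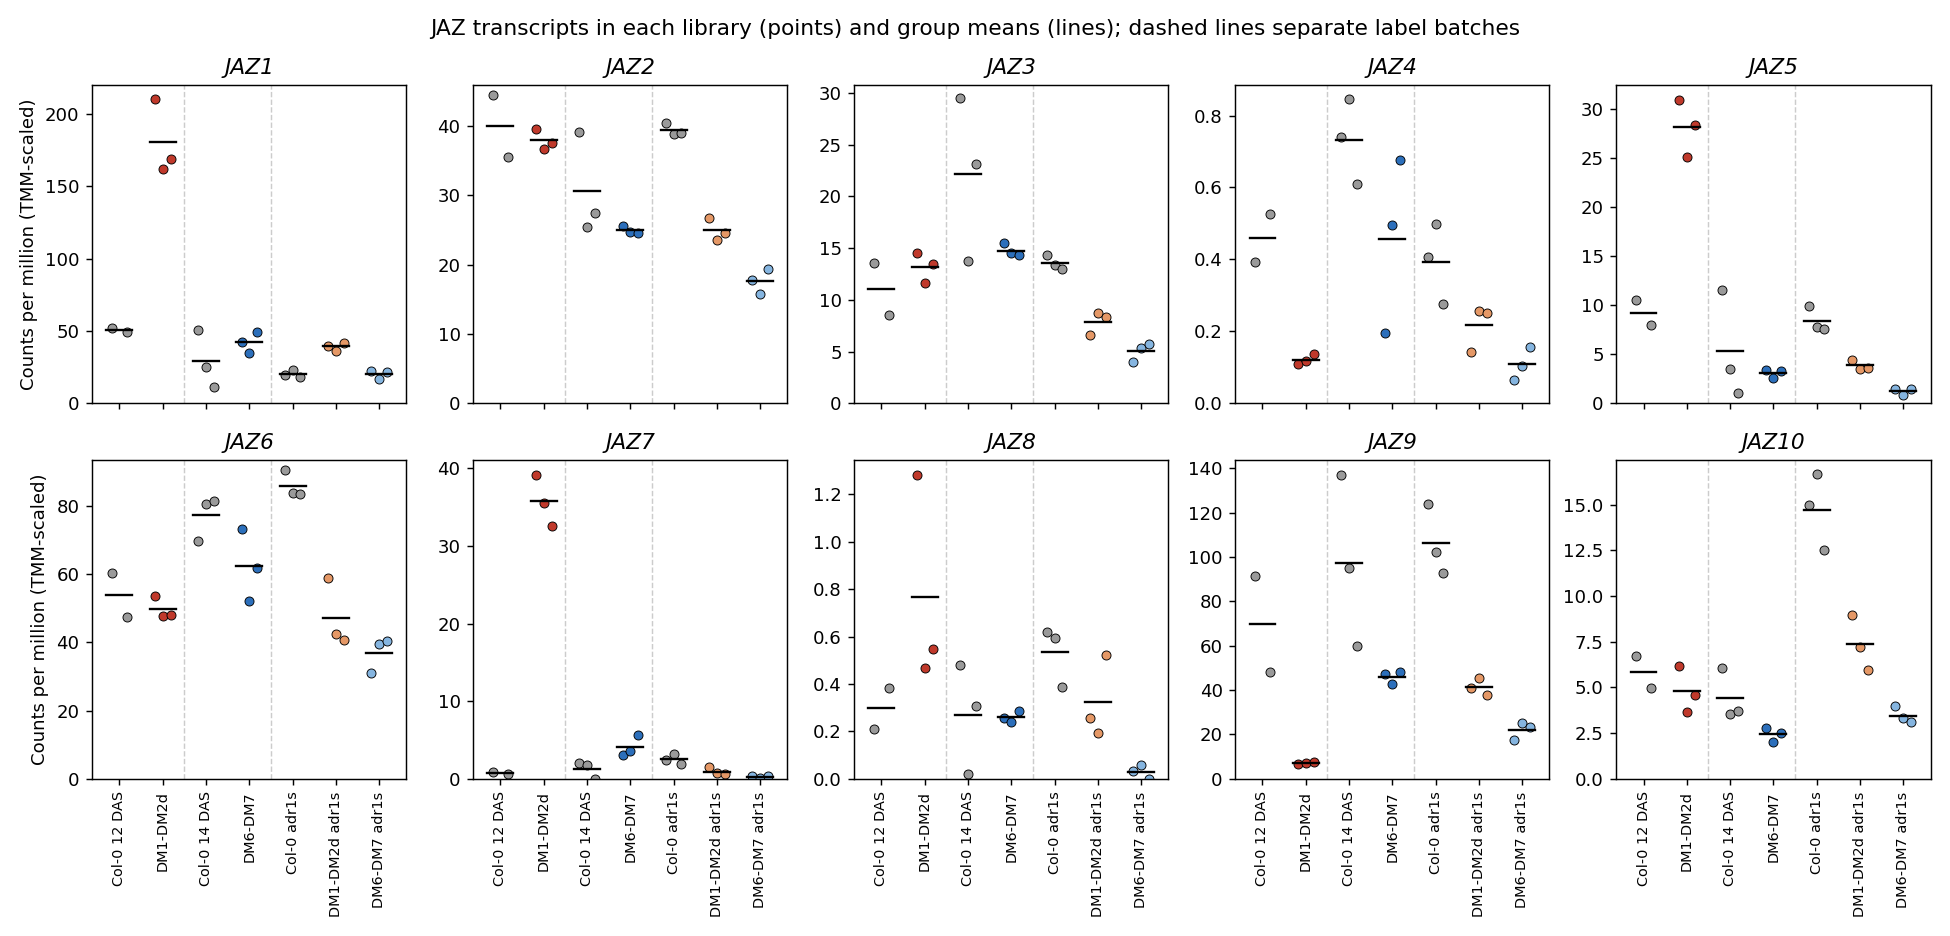
Level of each JAZ gene in each library (points, CPM, linear axis from 0) and the mean of each group (lines), with dashed lines between the 3 label batches. JAZ7 is high in the DM1-DM2d libraries (32.6 to 39.1), JAZ9 is lowest there (6.48 to 7.43), and the Col-0 libraries at 14 DAS spread widely for JAZ1 (11.4 to 50.5) and JAZ5 (1.01 to 11.6).

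In DM6-DM7, JAZ7 was higher and JAZ9, JAZ10, JAZ3 and JAZ2 lower than in Col-0 at 14 DAS, and the other 5 did not pass. With 1 higher and 4 lower, 5 of 10 members were called, against 64.8% of all genes (35% higher, 29.7% lower). The median log2 change of the members was -0.45, against 0.06 over all genes.

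JAZ9 was at 47.2, 42.5 and 48.2 CPM in DM6-DM7 and at 137, 94.9 and 59.9 CPM in Col-0. All 3 line libraries were below all 3 controls, and the log2 change was -1.08 ± 0.25 (adjusted p = 0.00132, edgeR). JAZ10 was at 2.79, 2.03 and 2.52 CPM against 6.07, 3.53 and 3.72 CPM, also without overlap, and its log2 change was -0.86 ± 0.24 (adjusted p = 0.00429, edgeR). These were the members whose calls held with each library left out in turn and under each scaling, filter and tool tried.

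JAZ7 was at 3.09, 3.54 and 5.67 CPM in DM6-DM7 and at 2.04, 1.81 and 0.0235 CPM in Col-0. The groups did not overlap, but the lowest control library, replicate 3, held only 2 JAZ7 counts. The log2 change was 1.65 ± 0.66 (adjusted p = 0.0384, edgeR). The call was lost with DESeq2, with upper-quartile scaling, with no filter, in a fit of these 6 libraries alone and when any of 12 single libraries was left out, with log2 changes of 1.01 to 2.12 over the 20 refits. JAZ3 (14.3 to 15.5 CPM against 13.8 to 29.5 CPM) and JAZ2 (24.6 to 25.6 CPM against 25.5 to 39.2 CPM) overlapped with their controls. Their log2 changes of -0.58 ± 0.22 (adjusted p = 0.0272) and -0.3 ± 0.13 (adjusted p = 0.0491) by edgeR were not called without Col-0 14 DAS replicate 1, and were then -0.32 and -0.09. JAZ2 also lost its call without DM1-DM2d replicate 1 or 2 or Col-0 adr1s replicate 1 or 3. These libraries are outside the comparison and enter through the shared filter, scaling, estimate of spread and p adjustment.

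The 3 Col-0 libraries at 14 DAS differed from each other in several members, JAZ9, JAZ7 and JAZ3 above among them. JAZ1 was at 50.5, 25 and 11.4 CPM, JAZ5 at 11.6, 3.47 and 1.01 CPM, and JAZ8 at 0.48, 0.019 and 0.305 CPM. In DM6-DM7 JAZ1 was at 42.7, 35.1 and 49.1 CPM, inside the range of its controls, and did not pass (log2 change 0.54, interval -0.17 to 1.26). Without Col-0 14 DAS replicate 1 it passed, at 1.21. JAZ5 was at 3.36, 2.55 and 3.26 CPM and did not pass either (log2 change -0.81, interval -1.93 to 0.3). Without Col-0 14 DAS replicate 3 it was called lower, at -1.37, and without replicate 1 its uncalled value was 0.43. The values of JAZ6 (log2 change -0.31, interval -0.62 to 0), JAZ4 (-0.68, interval -1.63 to 0.28) and JAZ8 (-0.04, interval -1.63 to 1.55) lay on the lower side of 0 without passing. JAZ6 passed as lower with either other scaling and with DESeq2.

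In the adr1s background the DM1-DM2d pair went with higher JAZ1 and with lower JAZ9, JAZ10, JAZ6, JAZ3 and JAZ2, relative to Col-0 adr1s. With 1 higher and 5 lower, 6 of 10 members were called, against 42.7% of all genes (23.9% higher, 18.8% lower). The median log2 change of the members was -0.86, against 0.03 over all genes, and 8 of 10 members had all line libraries below all control libraries, as had 29.4% of all genes tested.

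JAZ9 was at 41, 45.2 and 37.9 CPM in DM1-DM2d adr1s and at 124, 102 and 92.7 CPM in Col-0 adr1s. All line libraries were below all controls, and the log2 change was -1.36 ± 0.25 (adjusted p = 0.000423, edgeR). JAZ10 was at 8.95, 7.19 and 5.98 CPM against 15, 16.7 and 12.5 CPM, a log2 change of -1 ± 0.23 (adjusted p = 0.00226, edgeR). JAZ6 was at 58.8, 42.3 and 40.6 CPM against 90.4, 83.9 and 83.4 CPM (log2 change -0.86 ± 0.15). JAZ2 was at 26.8, 23.6 and 24.6 CPM against 40.5, 38.8 and 39 CPM (log2 change -0.66 ± 0.13), and JAZ3 at 6.61, 8.71 and 8.3 CPM against 14.3, 13.4 and 13 CPM (log2 change -0.79 ± 0.22). In each of these members the line and its control did not overlap.

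JAZ1 went up: it was at 39.8, 36.2 and 41.8 CPM in DM1-DM2d adr1s and at 19.8, 23 and 18.5 CPM in Col-0 adr1s. All line libraries were above all controls, with a log2 change of 0.94 ± 0.34 (adjusted p = 0.0363, edgeR). The call was lost when any 1 of these 6 libraries was left out, with a log2 change of 0.86 to 1.02 over the 20 refits. JAZ7, the member most raised in DM1-DM2d, was here at 1.48, 0.71 and 0.6 CPM against 2.46, 3.19 and 1.94 CPM. The line was below its control in all libraries, and the difference did not pass (log2 change -1.43, interval -2.93 to 0.06). JAZ5 at 3.55 to 4.46 CPM against 7.62 to 9.91 CPM (log2 change -1.12, interval -2.25 to 0.01), JAZ4 at 0.143 to 0.258 CPM against 0.275 to 0.499 CPM (interval -1.88 to 0.18) and JAZ8 at 0.194 to 0.521 CPM against 0.389 to 0.619 CPM (interval -2.32 to 0.89) did not pass either.

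In DM6-DM7 adr1s, 9 of 10 members were lower than in Col-0 adr1s and JAZ1 did not differ beyond the spread. The share of all genes called was 31.2% (18.6% higher, 12.6% lower). The median log2 change of the members was -1.97, against 0.02 over all genes. The 9 calls held with each of the 20 libraries left out in turn, and at an adjusted p of 0.01 JAZ4 was the only one lost. No member was called higher by edgeR, at an unadjusted p under 0.05 the count was 0 as well, and DESeq2 called 0 higher.

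The largest falls were in JAZ8, JAZ7 and JAZ5. JAZ8 had 2, 4 and 0 counts in the 3 DM6-DM7 adr1s libraries and 38, 31 and 24 counts in Col-0 adr1s, where it stood at 0.619, 0.595 and 0.389 CPM. The line was at or near the floor in each library, and the fitted log2 change of -4.05 ± 0.96 (adjusted p = 0.00361, edgeR) rests on these few counts, which may be fewer fragments still. JAZ7 was at 0.351, 0.118 and 0.38 CPM against 2.46, 3.19 and 1.94 CPM, a log2 change of -3.16 ± 0.81 (adjusted p = 0.00719, edgeR). Its 3 line libraries held 54 counts together. JAZ5 was at 1.48, 0.856 and 1.51 CPM against 9.91, 7.76 and 7.62 CPM, and its log2 change was -2.72 ± 0.57 (adjusted p = 0.00194, edgeR). The groups stood apart in all 3 members.

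The other called members moved the same way. JAZ9 was at 17.6, 24.9 and 23.4 CPM against 124, 102 and 92.7 CPM, which is 4.84-fold lower (log2 change -2.28 ± 0.26, adjusted p = 8.98e-06, edgeR). JAZ10 was at 3.97, 3.31 and 3.09 CPM against 15, 16.7 and 12.5 CPM, which is 4.27-fold lower (log2 change -2.09 ± 0.24, adjusted p = 6.42e-06, edgeR). JAZ2 was at 17.8, 15.8 and 19.4 CPM (log2 change -1.16 ± 0.13), JAZ6 at 31, 39.6 and 40.4 CPM (-1.21 ± 0.15) and JAZ3 at 4.02, 5.37 and 5.78 CPM (-1.42 ± 0.23). JAZ4, at 4, 7 and 10 counts against 25, 26 and 17 counts, had a log2 change of -1.84 ± 0.51 (adjusted p = 0.011, edgeR). JAZ1 was at 22.2, 16.7 and 21.5 CPM against 19.8, 23 and 18.5 CPM. Its groups overlapped, and the 95% interval of the log2 difference was -0.75 to 0.71.

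**Figure D3:**
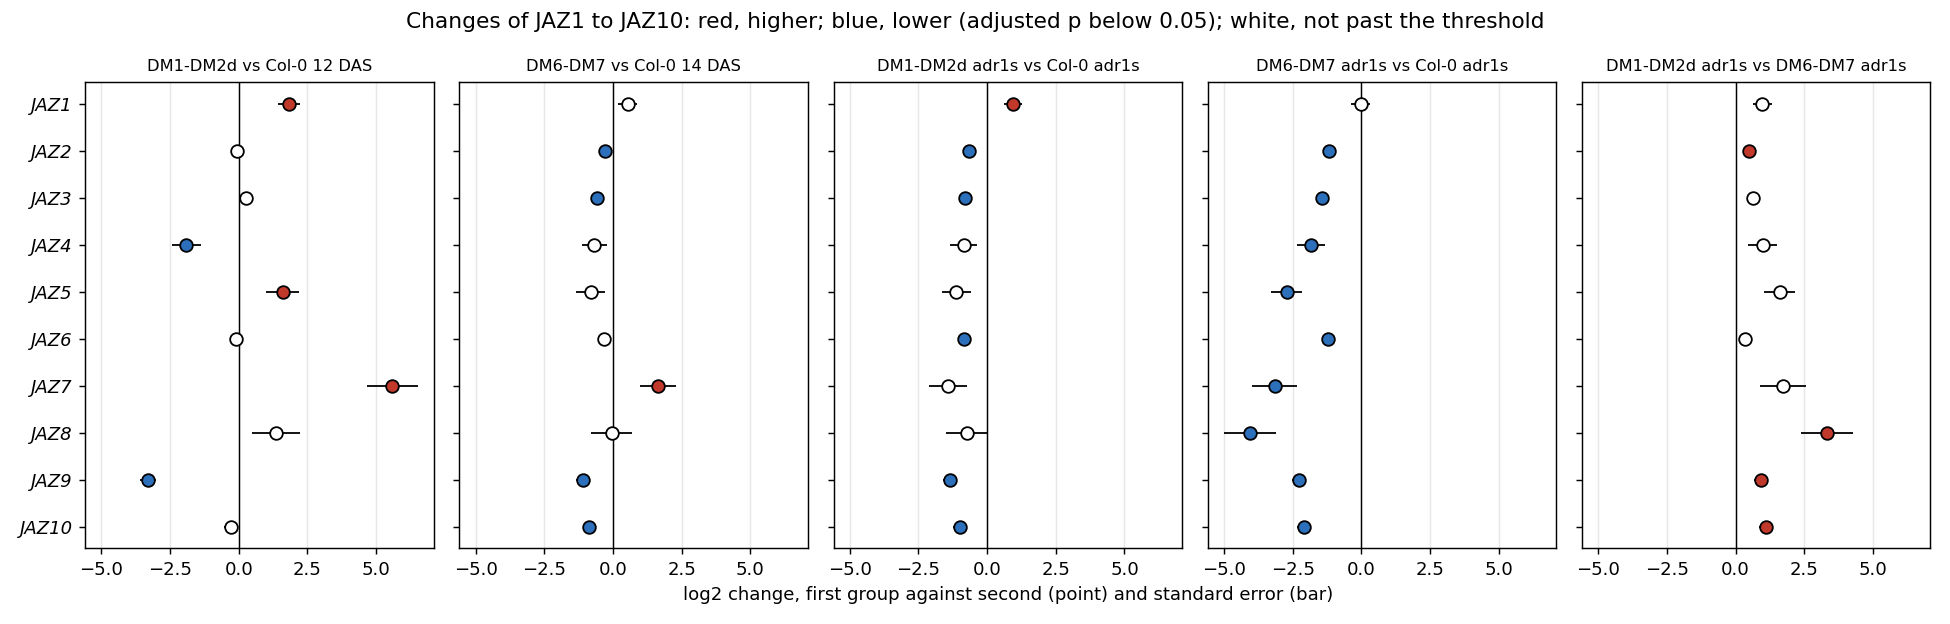
log2 change of each JAZ gene (x axis, point) with its standard error (bar) in the 5 comparisons, red for higher, blue for lower and white for not past an adjusted p of 0.05. JAZ7 lies at 5.59 in DM1-DM2d and at -3.16 in DM6-DM7 adr1s, and JAZ9 lies below 0 in all 4 comparisons with Col-0 controls.

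DM1-DM2d adr1s and DM6-DM7 adr1s were also set against each other. Their ages are not labelled and may differ, and age and genotype could then not be told apart here. All 10 members had the higher mean in DM1-DM2d adr1s, 9 of them without overlap between the libraries (JAZ4 is the exception), as had 17.7% of all genes tested, and JAZ2, JAZ8, JAZ9 and JAZ10 passed the test. These are 4 of 10 members higher and 0 lower, against 8.91% of all genes called (5.42% higher, 3.49% lower). At an unadjusted p under 0.05, 8 members were higher and 0 lower, and DESeq2 called 7 higher and 0 lower. The median log2 difference of the members was 0.98, against -0.01 over all genes.

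JAZ10 had the firmest difference, 8.95, 7.19 and 5.98 CPM against 3.97, 3.31 and 3.09 CPM. The lowest DM1-DM2d adr1s library was above the highest DM6-DM7 adr1s library, and the log2 difference of 1.09 ± 0.24 (adjusted p = 0.00865, edgeR) was called in each refit without 1 library. JAZ9 differed by 0.92 ± 0.25 (adjusted p = 0.0338) and JAZ8 by 3.33 ± 0.96 (adjusted p = 0.0384), the latter between 18, 12 and 33 counts and 2, 4 and 0 counts. Both calls were lost when any 1 of the 6 libraries was left out, and that of JAZ8 also without Col-0 adr1s replicate 1 or 2, with log2 differences of 0.75 to 0.99 for JAZ9 and 2.74 to 4.18 for JAZ8. JAZ2 differed by 0.5 ± 0.13 (adjusted p = 0.0233) and lost its call without DM1-DM2d adr1s replicate 1 or 3 or DM6-DM7 adr1s replicate 1 or 2. Not called were JAZ1 (log2 difference 0.97, interval 0.24 to 1.69), JAZ3 (0.64, interval 0.16 to 1.12), JAZ5 (1.6, interval 0.39 to 2.81), JAZ6 (0.35, interval 0.04 to 0.67), JAZ7 (1.73, interval -0.06 to 3.52) and JAZ4 (0.99, interval -0.11 to 2.09). The 2 lines' changes against Col-0 adr1s use the same 3 control libraries and are not independent of each other.

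The differences between effects were tested as well. The change with DM1-DM2d minus that with the same pair in adr1s was above 0 for 5 members and below 0 for 1, against 26% and 32.5% of all genes (58.5% in either direction). JAZ7 stood out with a difference of 7.02 ± 1.14 log2 units (adjusted p = 6.63e-05, edgeR). It rose in DM1-DM2d, and its lower level in DM1-DM2d adr1s did not pass the test. JAZ5 had a difference of 2.73 ± 0.8, JAZ3 of 1.04 ± 0.34, JAZ6 of 0.75 ± 0.22 and JAZ2 of 0.58 ± 0.19. JAZ9 fell more in DM1-DM2d than in DM1-DM2d adr1s, with a difference of -1.95 ± 0.38 (adjusted p = 0.000295, edgeR). For JAZ1, higher in both, the difference was 0.89 with an interval of -0.2 to 1.98 and did not pass. JAZ2, JAZ3 and JAZ6 lost their calls with upper-quartile scaling and without Col-0 12 DAS replicate 2.

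For DM6-DM7 the same difference was above 0 for 6 members and below 0 for 0, against 14.9% and 16.3% of all genes (31.2% in either direction). DESeq2 also gave 0 below 0, and 0 had an unadjusted p under 0.05. It was 4.81 ± 1.04 for JAZ7, 4.01 ± 1.22 for JAZ8, 1.23 ± 0.33 for JAZ10, 1.19 ± 0.35 for JAZ9, 0.91 ± 0.21 for JAZ6 and 0.86 ± 0.18 for JAZ2. JAZ9 lost its call without DM6-DM7 adr1s replicate 1, at 0.98. Between the 2 lines without the adr1s knockout, the DM1-DM2d change minus the DM6-DM7 change was above 0 for JAZ7 (3.94 ± 1.06), JAZ5 (2.42 ± 0.8), JAZ1 (1.29 ± 0.51) and JAZ3 (0.84 ± 0.33) and below 0 for JAZ9 (-2.23 ± 0.38), against 22% and 27.2% of all genes (49.3% in either direction). JAZ1 and JAZ3 had adjusted p of 0.0479 and 0.0448 (edgeR) and lost their calls when any of 11 and 10 single libraries was left out. These differences join libraries of different label batches, so batch, age and time of day where they differ, and the genotype cannot be told apart in them.

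Another 6 genes of the TIFY family, to which JAZ proteins belong, were measured alongside. JAZ11 was 1.98-fold higher in DM1-DM2d (17 to 19.2 CPM against 8.61 to 9.51 CPM) and 1.55-fold higher in DM6-DM7 (15.3 to 16.1 CPM against 9.17 to 10.8 CPM), and did not pass in either adr1s line. JAZ12 was higher in DM1-DM2d (log2 change 0.58 ± 0.16). TIFY8 was lower in all 4 lines, with log2 changes of -3.3, -1.79, -0.58 and -0.46 in DM1-DM2d, DM6-DM7 and their adr1s counterparts in that order. JAZ13 (AT3G22275) was lower in DM6-DM7 and both adr1s lines, with 2.2 to 3.57 CPM in Col-0 adr1s and at most 0.355 CPM in the adr1s lines. In DM6-DM7 it was at 0 to 0.112 CPM and in Col-0 at 14 DAS at 0.0705 to 1.84 CPM, which overlap. PPD1, a regulator of leaf growth, was lower in DM1-DM2d (log2 change -2.05), and its relative PPD2 was higher in DM6-DM7 (0.34) and DM6-DM7 adr1s (0.36).

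Salicylic acid genes were higher throughout: 14 of 14 in each of the 4 lines, with PR1 up by 11.05, 8.02, 11.33 and 11.85 log2 units and the synthesis gene ICS1 by 4.78, 2.08, 1.87 and 2.5 in the same order. Between the adr1s lines 0 of 14 differed by edgeR, 1 had an unadjusted p under 0.05 and DESeq2 called 1.

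Among 13 genes of the receptor and co-repressor, 11 were higher in DM1-DM2d and 9 in DM6-DM7, against 36.6% and 35% of all genes. TPL was higher by 1.58 ± 0.1 and 0.85 ± 0.08 log2 units, and the scaffold CUL1 by 1.41 ± 0.07 and 0.62 ± 0.06. COI1 was higher in DM1-DM2d (0.64 ± 0.08) and not called in the other 4 comparisons between groups, and NINJA was called only in the direct comparison of the adr1s lines (0.2 ± 0.06). In DM1-DM2d adr1s 3 of the 13 were higher and 3 lower, against 23.9% and 18.8% of all genes. In DM6-DM7 adr1s 3 were higher and 1 lower, against 18.6% and 12.6%. With upper-quartile scaling the counts were 11 higher and 2 lower in DM1-DM2d, and 5 higher and 3 lower in DM6-DM7. Of 12 transcription factors 10 were tested. MYC3 was higher in DM1-DM2d (1.57 ± 0.09) and DM6-DM7 (0.88 ± 0.08), and MYC4 was lower in all 4 lines (-0.7, -0.55, -0.58 and -0.26). MYC2 was listed at 0 counts in all 20 libraries. An exon of the opposite-strand gene AT1G32630, with 43 to 283 counts, covers 3241 of its 3289 exonic bases, so its transcript level is not known from this table.

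Of 20 tested jasmonate synthesis genes, 8 were higher and 10 lower in DM1-DM2d, and 8 and 6 in DM6-DM7. In the adr1s background 10 were higher and 2 lower with the DM1-DM2d pair, and 4 higher and 6 lower with DM6-DM7. Of all genes 36.6% were higher and 36.4% lower in DM1-DM2d, 35% and 29.7% in DM6-DM7, 18.6% and 12.6% in DM6-DM7 adr1s, 23.9% and 18.8% in DM1-DM2d adr1s, and 5.42% and 3.49% in the direct comparison, the background for this and the other lists. The allene oxide synthase gene AOS was lower in DM1-DM2d (17.3 to 19.7 CPM against 136 to 146 CPM), DM6-DM7 (60.3 to 70.9 against 263 to 287 CPM) and DM6-DM7 adr1s (41.6 to 53 against 96.5 to 105 CPM). In DM1-DM2d adr1s it was at 93.6 to 106 CPM, as in Col-0 adr1s (log2 change 0 ± 0.09). The lipoxygenase gene LOX2 was lower in DM1-DM2d (-1.77 ± 0.24) and higher in DM6-DM7 (2.16 ± 0.23), DM6-DM7 adr1s (0.9 ± 0.22) and DM1-DM2d adr1s (2.5 ± 0.23). JAR1, which makes jasmonoyl-isoleucine, was higher by 1, 0.34, 0.29 and 0.31 log2 units in the 4 lines. Of 11 turnover genes, 5 were higher and 3 lower in DM1-DM2d, with the hydroxylase-pathway gene CYP94C1 up by 3.57 ± 0.31, and 0 were higher and 6 lower in DM6-DM7 adr1s, among them CYP94B1 (-2.49 ± 0.41) and ILL6 (-1.24 ± 0.21). DESeq2 called 1 turnover gene higher in DM6-DM7 adr1s, and 0 were higher at an unadjusted p under 0.05.

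Targets of the MYC branch include the storage protein gene VSP2 and the aminotransferase-like CORI3. VSP2 was at 1.14 to 2.07 CPM in DM6-DM7 adr1s, against 4.86 to 15.6 CPM in DM1-DM2d adr1s, and did not pass in that comparison. CORI3 was at 111 to 243 CPM in DM1-DM2d adr1s, 9.25 to 13.6 CPM in DM6-DM7 adr1s and 23.7 to 35.5 CPM in Col-0 adr1s. Of 12 targets 6 were higher and 0 lower in DM1-DM2d adr1s, 2 higher and 5 lower in DM6-DM7 adr1s, and 5 higher and 0 lower when these lines were compared directly. In DM1-DM2d 2 were higher and 6 lower, with ANAC055 (NAC3) up by 6.05 ± 0.75 and CLH1 down by 6.94 on the log2 scale, and in DM6-DM7 0 were higher (0 at an unadjusted p under 0.05, 0 by DESeq2) and 4 lower. Of 9 genes of the ERF branch 3 were higher in DM6-DM7 adr1s and 7 in DM1-DM2d adr1s, and 6 were higher in the direct comparison. In DM1-DM2d 3 ERF-branch genes were higher, the pathogenesis-related PR4 (log2 change 3.77 ± 0.38), the chitinase CHIB (5.2 ± 0.38) and ERF1 (2.26 ± 0.56), and 5 lower, among them ORA59 (-4.99 ± 0.6), and in DM6-DM7 3 were higher and 5 lower. The defensin gene PDF1.2A was at 16.8 to 39.7 CPM in DM1-DM2d adr1s, 0.443 to 5.32 CPM in DM6-DM7 adr1s and 0.922 to 1.67 CPM in Col-0 adr1s. It had 0 counts in all DM1-DM2d libraries, against 9.19 to 11.7 CPM in their controls.

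**Figure D4:**
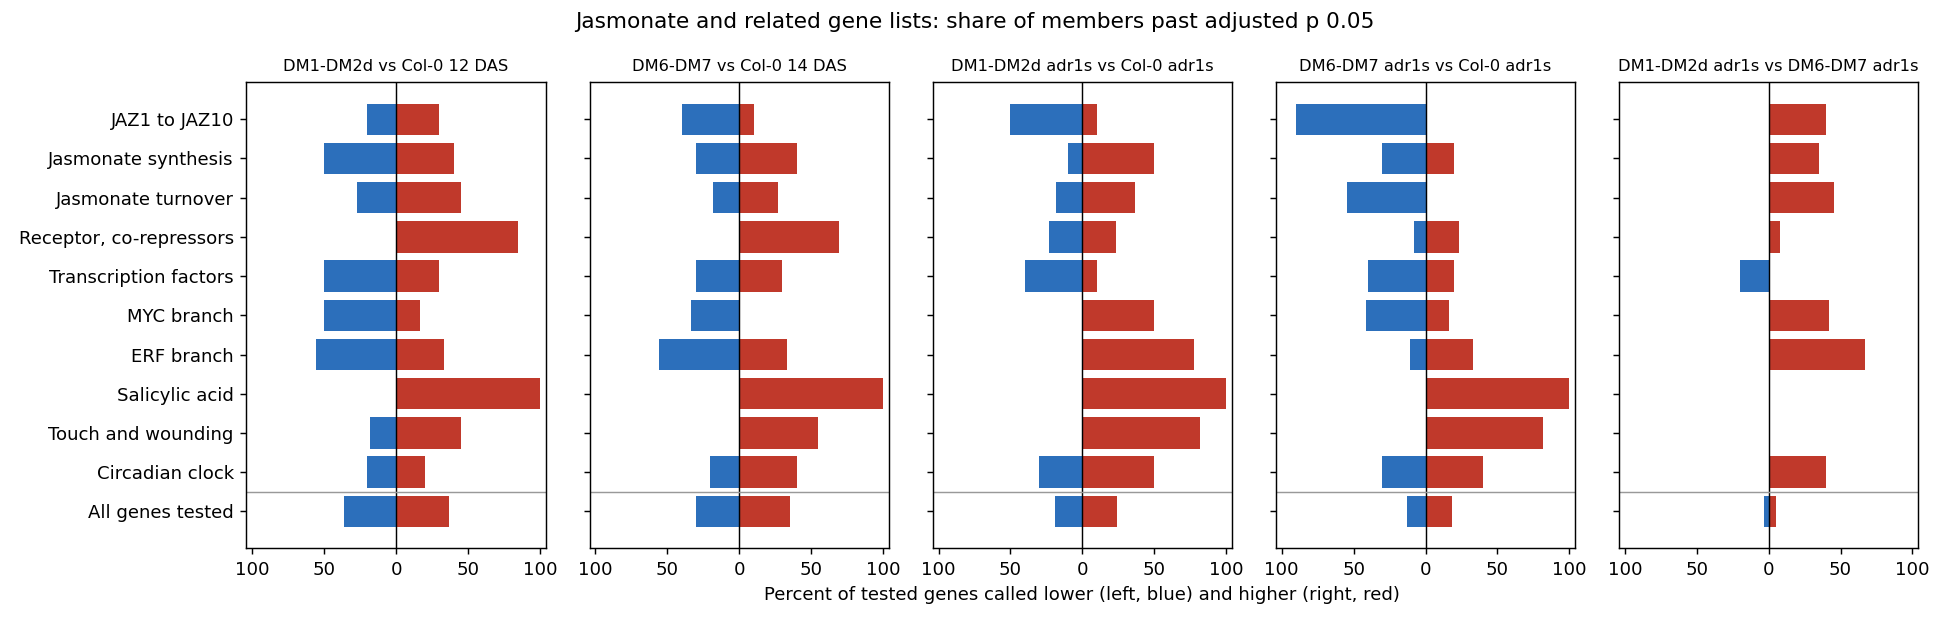
Percent of tested genes of each list called lower (blue, left) and higher (red, right) at an adjusted p of 0.05 in the 5 comparisons, with all genes tested in the bottom row. Salicylic acid genes are 14 of 14 higher in the 4 lines, and JAZ genes are 9 of 10 lower in DM6-DM7 adr1s. In the direct comparison of the adr1s lines the JAZ, synthesis, turnover, receptor, MYC, ERF and circadian clock bars point to higher. The transcription factor bar points to lower there.

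Time of day and handling are known to move JAZ transcripts, and marker genes for both were read beside them. Summed over 11 touch and wound genes, the level was 2880 to 3140 CPM in DM1-DM2d against 739 to 1270 CPM in its control, 755 to 1000 against 298 to 639 CPM for DM6-DM7, and 400 to 502 and 390 to 526 CPM for the adr1s lines against 197 to 227 CPM. Of these genes 5 were higher and 2 lower in DM1-DM2d, 6 higher in DM6-DM7 and 9 higher in each adr1s line, where 73%, 64.8%, 42.7% and 31.2% of all genes were called in either direction (DM1-DM2d, DM6-DM7 and their adr1s counterparts in that order). Between the adr1s lines 0 of 11 differed by edgeR, by DESeq2 and at an unadjusted p under 0.05. Of 10 clock genes 2 were higher and 2 lower in DM1-DM2d, and 4 and 2 in DM6-DM7. In the adr1s background 5 were higher and 3 lower with the DM1-DM2d pair, and 4 higher and 3 lower with DM6-DM7. The number of clock genes called was thus not above those shares of all genes in DM1-DM2d and DM6-DM7. It was above them in both adr1s lines, and with only 10 genes the difference from the shares was not tested. Lower in DM1-DM2d adr1s and DM6-DM7 adr1s were CCA1 (-2.13 and -1.59), LHY (-2.2 and -2.07) and RVE8 (-1.78 and -1.2), on the log2 scale. Higher in both were PRR5 (5.61 and 3.5), LUX (1.56 and 0.55), GI (1.49 and 0.96) and TOC1 (1.43 and 0.71). ELF4 was higher in DM1-DM2d adr1s (3.97) and did not pass in DM6-DM7 adr1s. The summed level over the clock genes was 380 to 533 CPM in DM1-DM2d against 632 to 734, 552 to 620 CPM in DM6-DM7 against 610 to 1120, and 453 to 527 and 408 to 490 CPM in the adr1s lines against 606 to 713. No gene of either list was at 0 throughout a group. In the direct comparison the evening genes ELF4 (3.38), PRR5 (2.12), LUX (1.01) and TOC1 (0.72) were higher in DM1-DM2d adr1s on the log2 scale, and 0 were lower (1 at an unadjusted p under 0.05, 0 by DESeq2). Of all genes 8.91% were called there in either direction. The morning gene CCA1 was at 469, 319 and 200 CPM in the 3 Col-0 libraries at 14 DAS and at 1.45 to 5.45 CPM in the batch 1 libraries. The part of time of day, of touch and of age in the JAZ differences was not tested.

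Across the 20 libraries the members did not form 1 pattern. On log2 CPM, the Pearson correlation was 0.85 for JAZ2 with JAZ5, 0.82 for JAZ1 with JAZ7 and for JAZ5 with JAZ7, and 0.76 for JAZ4 with JAZ9, but -0.64 for JAZ1 with JAZ9 and -0.43 for JAZ7 with JAZ9. These points share groups and batches, so the values describe the set of libraries. The genes outside the family nearest to single members were ANAC055 (NAC3), which encodes a jasmonate-responsive NAC factor, for JAZ1 (0.97), AIB, a basic helix-loop-helix factor, for JAZ5 (0.9), PAH1, a phosphatidate phosphatase, for JAZ7 (0.93) and AT1G29120 for JAZ9 (0.94). For JAZ2, JAZ3, JAZ4, JAZ6, JAZ8 and JAZ10 they were AT1G49740 (0.82), AT2G20920 (0.87), AT3G26630 (0.87), PUB26 (0.82), AT4G16745 (0.7) and AT1G53903 (0.84). The mean profile of the 10 members was nearest to AT3G59580 (0.81), AT5G13940 (0.78), AT5G57610 (0.77), AT3G01345 (0.76) and AT1G50590 (0.76), and farthest from AT3G53670 (-0.79) and SPL (AT4G27330, -0.78).

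Ranked by mean CPM, DM1-DM2d stood first for JAZ1, JAZ5 and JAZ7 without overlap with the next group, and first for JAZ8 with overlap. It stood last for JAZ9 without overlap. DM6-DM7 adr1s was last for JAZ2, JAZ3, JAZ5, JAZ6, JAZ7 and JAZ8 without overlap with the group above it, and last for JAZ1 and JAZ4 with overlap. Col-0 adr1s was first for JAZ6 and JAZ10 without overlap and for JAZ9 with overlap, and Col-0 at 14 DAS was first for JAZ3 with overlap and for JAZ4 without. For JAZ2 the top 3 groups, Col-0 at 12 DAS, Col-0 adr1s and DM1-DM2d, overlapped in turn at means of 40.1, 39.4 and 37.9 CPM, and JAZ10 was lowest in DM6-DM7, at a mean of 2.45 CPM.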

How the data were processed

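The authors deposited raw read counts per gene for 20 RNA-seq libraries. Per the submitters' processing notes, reads were processed with featureCounts 2.0.1, HISAT2 2.2.1 and fastp 0.23.2 on TAIR10, and DESeq2 1.34.0 is named too; counting options are not given in the sources used here. Library preparation was strand-specific, per the labels' protocols. From these counts, edgeR 4.0.16 (R 4.3.3) filtered genes (minimum count 10), scaled by trimmed mean of M values, and fitted all 20 libraries by group with its robust quasi-likelihood test for 8 contrasts. P-values were Benjamini-Hochberg adjusted over 23349 genes, with a threshold of 0.05. Levels are CPM on scaled library sizes, and per kilobase of TAIR10.1 exon where genes are compared. The members, gene lists and tests were chosen with earlier results of these data known. Named pathway genes were the most significant called members of each list, up to 4 in the commoner and 2 in the other direction, with fixed reference genes. PDF1.2A, CCA1, TCH2, TCH3, TCH4 and the shoot markers other than RBCS1A were added after their values were seen. P-values set a group difference against the spread between libraries of the same group, estimated over all 20 libraries and moderated across genes. How many plants or transformants that spread covers is not known. Alternatives were other scalings, filters, thresholds, DESeq2 1.42.0, fits of the compared libraries, a replicate block and leaving out each library. ATAC-seq was not analysed here.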

Additional observations from a re-analysis of the deposited data

Results flagged for a closer look

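The tests of a difference between effects or between the adr1s lines passed the threshold (edgeR, adjusted p below 0.05) for 21 member values on the log2 scale. Between DM1-DM2d adr1s and DM6-DM7 adr1s these were JAZ2 (0.5), JAZ8 (3.33), JAZ9 (0.92) and JAZ10 (1.09). For the DM1-DM2d change minus that in adr1s they were JAZ2 (0.58), JAZ3 (1.04), JAZ5 (2.73), JAZ6 (0.75), JAZ7 (7.02) and JAZ9 (-1.95). For the DM6-DM7 change minus that in adr1s they were JAZ2 (0.86), JAZ6 (0.91), JAZ7 (4.81), JAZ8 (4.01), JAZ9 (1.19) and JAZ10 (1.23). For the DM1-DM2d change minus the DM6-DM7 change they were JAZ1 (1.29), JAZ3 (0.84), JAZ5 (2.42), JAZ7 (3.94) and JAZ9 (-2.23). All but the direct comparison of the adr1s lines cross label batches, and in those batch and genotype cannot be told apart. In the direct comparison the lines may differ in age, and age and genotype could then not be told apart either.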

How the results depend on the processing

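No member value that passed the test changed sign under any alternative, and of the refitted log2 changes 2137 kept their side of the threshold, 127 lost a call and 56 gained one. With upper-quartile scaling 5 members were lower in DM1-DM2d, 0 higher in DM6-DM7, and 2 above 0 in both the DM1-DM2d minus adr1s and the DM1-DM2d minus DM6-DM7 difference. With no filter, 0 were higher in DM6-DM7. DESeq2 gave 0 higher there and 7 higher between the adr1s lines. At an adjusted p of 0.01, DM6-DM7 had 0 higher and 2 lower, DM1-DM2d adr1s 0 higher, the direct comparison 1 higher, both adr1s differences 3 above 0 and the difference between lines 1. With at least 2-fold required, DM6-DM7 had 1 lower, DM1-DM2d adr1s 0 higher and 1 lower, the direct comparison 2 higher and the DM1-DM2d minus adr1s difference 3. In fits of only the libraries compared, DM6-DM7 had 0 higher and 2 lower, the direct comparison 8 higher and the difference between lines 1 above 0. The cause of these shifts was not tested. The replicate block gave 0 higher in DM6-DM7, 0 higher in DM1-DM2d adr1s, 2 higher in the direct comparison and 1 above 0 between lines. Replicate numbers do not pair the samples: deviations correlated between -0.033 and 0.05 for equal numbers and between -0.057 and 0.064 for different numbers. Leaving out each library in turn gave, higher and lower, 2 to 3 and 2 in DM1-DM2d, 0 to 2 and 3 to 5 in DM6-DM7, 0 and 9 in DM6-DM7 adr1s, 0 to 1 and 5 to 7 in DM1-DM2d adr1s, and 1 to 7 and 0 in the direct comparison. For the differences it gave 2 to 7 and 1 (DM1-DM2d minus adr1s), 5 to 9 and 0 (DM6-DM7 minus adr1s) and 1 to 4 and 1 (between lines). Depth limits JAZ4 and JAZ8, with 0 to 117 counts per library. It also limits JAZ7 in DM6-DM7 adr1s, with 54 counts over the 3 libraries together.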
